A study of Mus musculus with 12 samples.

Results

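The dual-specificity phosphatases described here are 10 genes, Dusp1, Dusp2, Dusp4, Dusp5, Dusp6, Dusp7, Dusp8, Dusp10, Dusp16 and Dusp18, taken by gene symbol from the 18719 genes that the count tables of unstimulated and lipopolysaccharide (LPS)-stimulated cells list between them. All 10 were listed in both tables and passed the filter on low counts in every comparison. RNA was sequenced from J774A.1 cells, a mouse macrophage line, in 4 groups of 3 libraries each, namely WT, unstimulated, ACAT1 KO, unstimulated, WT, LPS and ACAT1 KO, LPS, where LPS is 100 ng/ml for 2 hours. ACAT1 KO cells were made with Cas9 and a guide to the fourth exon of Acat1, a mitochondrial thiolase, and WT cells received the same Cas9 vector without a guide, so both genotypes went through transfection, sorting and outgrowth from a few cells. The paper describes the populations of both genotypes as clonal. The unstimulated libraries of a genotype come from different lines, so their spread includes differences between clones.

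Mitogen-activated protein kinases (MAPKs) are switched on when a threonine and a tyrosine of their activation loop are both phosphorylated, and dual-specificity phosphatases switch them off by removing both phosphates. Nuclear members such as Dusp1, Dusp2, Dusp4 and Dusp5 are products of inducible early genes, Dusp6 and Dusp7 act on ERK in the cytoplasm, and Dusp8, Dusp10 and Dusp16 prefer JNK and p38. LPS binds TLR4 on macrophages and activates all 3 MAPK families. Some of these phosphatases are known as brakes on the cytokine output that follows. Dusp18 is an atypical member, a small enzyme without the MAPK-binding domain of the others.

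RefSeq promoter windows of GRCm38.p6, from 250 bases before to 50 bases after the start of transcription, were matched by symbol for 9 of the 10 genes, all but Dusp4. Stretches before the start are shown for the genes on which the results turn (Dusp1 and Dusp2 for their LPS response, Dusp5, Dusp7 and Dusp18 for their difference between genotypes) and for Dusp8, which shares a motif with Dusp1. They lie at Dusp1 at chr17:26508520-26508722, minus strand, Dusp2 at chr2:127335909-127336158, plus strand, Dusp5 at chr19:53528895-53529108, plus strand, Dusp7 at chr9:106368382-106368631, plus strand, Dusp8 at chr7:142095285-142095534, minus strand and Dusp18 at chr11:3895099-3895239, plus strand, each ending at the start of transcription or at the first exon of a coding gene that GENCODE M21 places before it. Capitals mark a cyclic AMP response element (CRE), a CArG box or an E-box.
Dusp1: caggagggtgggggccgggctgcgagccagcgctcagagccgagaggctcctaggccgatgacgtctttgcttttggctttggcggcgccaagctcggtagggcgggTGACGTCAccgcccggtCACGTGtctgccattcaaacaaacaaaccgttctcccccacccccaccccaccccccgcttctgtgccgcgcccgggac
Dusp2: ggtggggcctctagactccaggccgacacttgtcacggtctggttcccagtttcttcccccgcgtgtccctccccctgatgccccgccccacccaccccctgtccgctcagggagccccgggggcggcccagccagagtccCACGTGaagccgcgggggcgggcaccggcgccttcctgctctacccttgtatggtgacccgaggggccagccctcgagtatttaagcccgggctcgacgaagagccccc
Dusp5: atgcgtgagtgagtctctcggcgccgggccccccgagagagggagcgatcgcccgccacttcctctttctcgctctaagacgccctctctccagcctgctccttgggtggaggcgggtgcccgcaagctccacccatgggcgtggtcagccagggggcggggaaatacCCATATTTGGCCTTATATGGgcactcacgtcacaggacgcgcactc
Dusp7: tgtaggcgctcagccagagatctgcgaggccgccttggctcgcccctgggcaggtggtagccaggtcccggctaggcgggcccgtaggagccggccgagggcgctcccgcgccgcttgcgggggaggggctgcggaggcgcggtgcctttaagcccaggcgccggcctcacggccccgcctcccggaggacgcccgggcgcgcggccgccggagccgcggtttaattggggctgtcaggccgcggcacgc
Dusp8: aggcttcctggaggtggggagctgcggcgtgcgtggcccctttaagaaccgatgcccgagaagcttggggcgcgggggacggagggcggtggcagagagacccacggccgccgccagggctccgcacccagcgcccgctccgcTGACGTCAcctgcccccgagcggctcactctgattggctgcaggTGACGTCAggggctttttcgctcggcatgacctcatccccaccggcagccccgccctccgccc
Dusp18: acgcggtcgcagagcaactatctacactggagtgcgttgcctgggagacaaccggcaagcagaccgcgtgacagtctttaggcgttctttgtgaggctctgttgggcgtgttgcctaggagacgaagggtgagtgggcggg

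The CRE, TGACGTCA, occurred in the windows of Dusp1, 143 bases before the start, and of Dusp8, 107 and 63 bases before it. It was present in 1.79% of all 32851 windows of the same length. Dusp5 carried a pair of adjacent CArG boxes, the motif of serum response factor, 82 and 72 bases before its start, and 1.63% of all windows held at least 1. The E-box CACGTG, present in 7.15% of all windows, lay 126 bases before the start of Dusp1 and 109 bases before that of Dusp2. The GC box GGGCGG was found in 8 of the 9 windows, against 35.7% of all windows, and the guanine and cytosine content of the 9 windows ran from 57.3% to 78.7% against a median of 52.7%. None of the 9 held the kappa B motif (4.51% of all windows), AP-1 TGANTCA (7.81%), GAS TTCNNNGAA (8.3%), the ISRE (3.44%) or TATAAA (13.6%), and matches of different motifs did not overlap. Both strands were searched, and absence of a match says only that these letters are not in this window. RefSeq starts of Dusp1, Dusp5, Dusp8 and Dusp10 lie inside the longer spans that GENCODE gives these genes.

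Dusp1 and Dusp2 also stood high in the pentamer ATTTA, the core of AU-rich elements that mark short-lived mRNAs. Each had 4 copies in the longest annotated 3' untranslated region, which is 5.77 per kb over 693 bases in Dusp1 and 6.85 per kb over 584 bases in Dusp2, more than 95.9% and 97.5% of 18147 coding genes. The other 8 genes had 0 to 5 copies, at most 2.69 per kb.

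Total counts per library ranged from 56948593 to 167280149. Among unstimulated libraries, WT replicate 1, WT replicate 2 and ACAT1 KO replicate 2 stood apart. Noncoding genes that overlap exons of a gene on the opposite strand took 0.0127% to 0.0195% of the counts there and no more than 0.00436% in any of the other 9 libraries. In WT replicate 1 a single gene also took 3.94% of the counts. All 10 macrophage markers checked were listed, with summed levels of 7864 to 12563 CPM (counts scaled to library size by the TMM method over all 12 libraries). Of 10 markers of other cell types, 2 were listed in unstimulated cells and 4 after LPS, and Cd3e, Epcam, Krt18, Alb and Ly6g were not listed in either state. Their summed level was 5.49 to 6.57 CPM in WT and 10.8 to 12.8 CPM in ACAT1 KO cells after LPS, most of it Pdgfra. The summed level of 8 LPS response markers was 5658 to 7464 CPM in WT and 9325 to 11820 CPM in ACAT1 KO cells after LPS. Single markers went both ways. At an edgeR adjusted p under 0.05, 6 of these 8 were higher in ACAT1 KO cells after LPS. Ier3 was lower (log2 fold change -1.47, edgeR adjusted p = 0.0496). Of the 10 macrophage markers 3 were higher and 2 lower after LPS, and 2 were lower without stimulation. Over all genes 5.93% were higher and 9.12% lower after LPS, and 0.742% and 1.17% without stimulation. These marker sums moved with genotype, as did the results after LPS below, and their part in those results was not tested. In bulk libraries fewer cells that express a gene and less of its RNA per cell cannot be told apart. Acat1 itself stood at 98.8 ± 15.6 CPM in WT cells and 26.8 ± 1.82 CPM in ACAT1 KO cells (SD, n = 3) without stimulation, and at 81.9 ± 15.5 CPM and 19.1 ± 0.732 CPM after LPS, with no overlap between genotypes in either state.

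Levels of the 10 genes were compared with each other per kilobase of exon, as RPKM. In unstimulated WT cells Dusp1 was the most abundant, at 147 ± 62.9 RPKM (SD, n = 3), ahead of Dusp4 at 57.2 ± 4.13 and Dusp6 at 34.4 ± 6.77. Dusp5 followed at 18.0 ± 7.07 RPKM, Dusp16 at 9.59 ± 0.931 and Dusp7 at 6.85 ± 0.353, and each of these 6 genes lay above the next without overlap between libraries. Dusp2, Dusp10 and Dusp8 were close together at 2.41 ± 0.473, 1.89 ± 0.439 and 1.55 ± 0.0695 RPKM, and neighbours among them overlapped. Dusp18 was the lowest, at 0.310 ± 0.115 RPKM.

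This order changed after LPS, as the plot of the summed level in each library shows. Dusp4 then led, at 103 ± 22.3 RPKM (SD, n = 3) in WT and 66.2 ± 3.86 RPKM in ACAT1 KO cells. Dusp1 made up 44% to 61.8% of the summed RPKM of the 10 genes in unstimulated libraries of either genotype and 6.76% to 11.9% in LPS libraries. Dusp2 went from at most 1.52% of that sum to between 8.42% and 29.2%, and Dusp4 from at most 25.9% to at least 34.5%. In WT cells after LPS, Dusp5, Dusp2, Dusp1 and Dusp16 followed Dusp4 at 35.6 ± 9.27, 28.8 ± 7.53, 20.1 ± 9.36 and 16.1 ± 0.939 RPKM, and neighbours in that order overlapped. In ACAT1 KO cells the order was Dusp2 at 46.3 ± 13.6 RPKM, Dusp5 at 23.8 ± 2.19, Dusp16 at 17.0 ± 0.663 and Dusp1 at 14.5 ± 3.68, of which only the last pair overlapped. With the length of the longest transcript in place of all exons, Dusp2 stood above Dusp5 in WT cells after LPS, Dusp16 above Dusp5 in ACAT1 KO cells after LPS, and Dusp10 above Dusp8 in unstimulated ACAT1 KO and in WT LPS cells. Dusp18 remained the lowest in all 4 groups under either length.

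**Figure D1:**
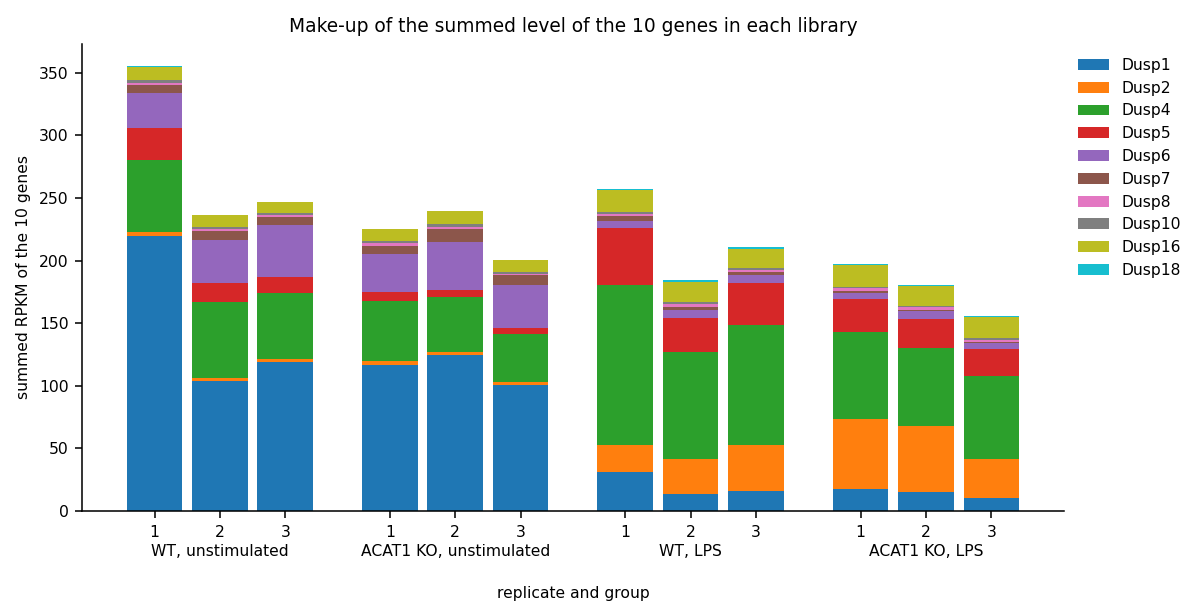
Summed RPKM of the 10 genes (y axis) in each of the 12 libraries (x axis, by replicate and group), with 1 colour per gene. Dusp1 fills 44% to 61.8% of each unstimulated bar and at most 11.9% of each LPS bar, where Dusp4 is the largest block.

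The first question is how each genotype responded to LPS, tested over 16535 genes in 1 fit of all 12 libraries. In WT cells 5 of the 10 genes rose and 3 fell at a Benjamini-Hochberg adjusted p under 0.05 from edgeR's quasi-likelihood test, beside 29.3% of all genes tested that were called higher and 28% called lower. In ACAT1 KO cells 5 rose and 4 fell, beside 29.5% and 31.2% of all genes. The genes that rose were Dusp2, Dusp4, Dusp5, Dusp16 and Dusp18 in both genotypes, and Dusp1, Dusp6 and Dusp7 fell in both. Dusp10 fell in ACAT1 KO cells, and Dusp8 was not called in either. The median log2 fold change of the 10 genes was 0.54 in WT and 0.36 in ACAT1 KO cells, against -0.018 and -0.026 over all genes.

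**Figure D2:**
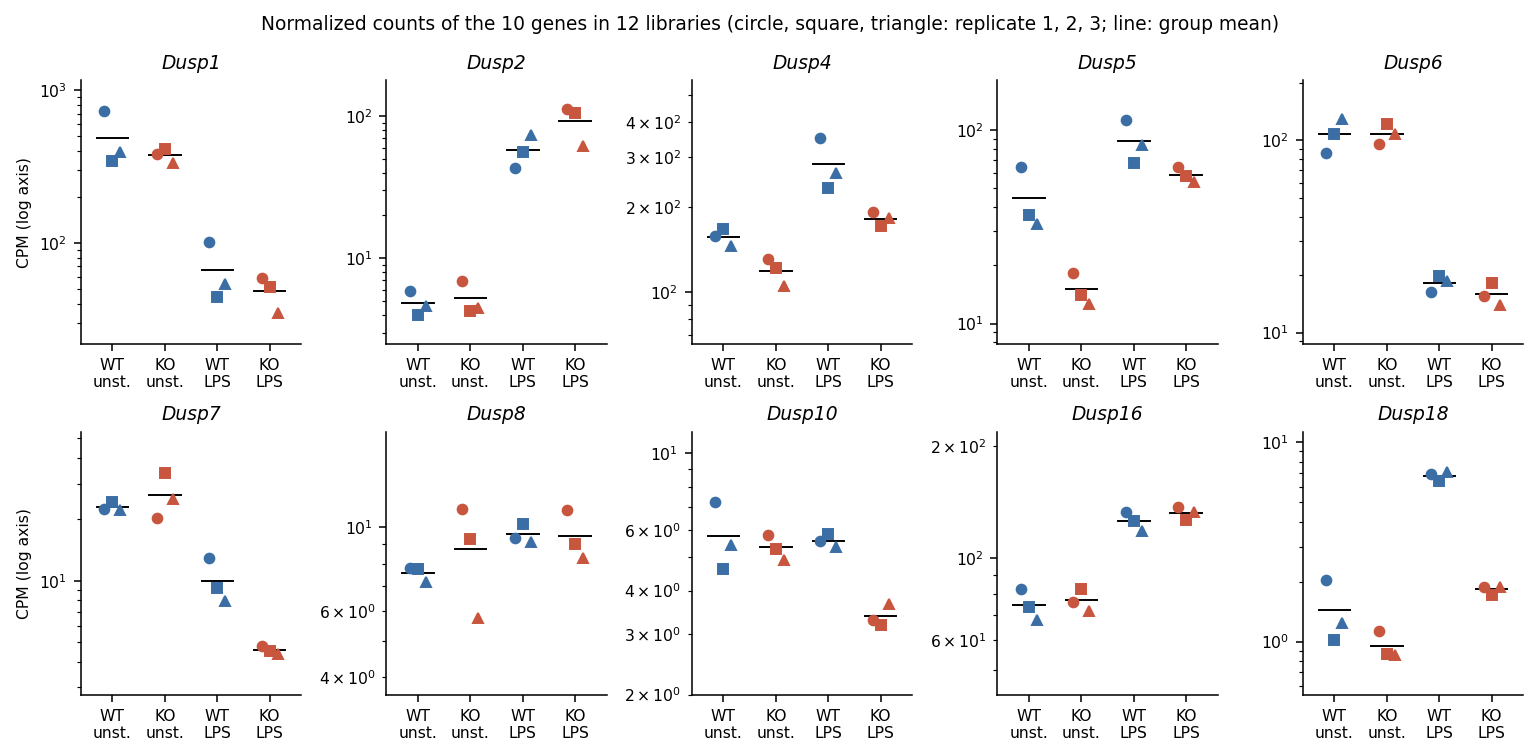
CPM of each gene (y axis, log scale) in the 3 libraries of each group (x axis), with symbols for replicates 1 to 3 and a line at the group mean. Dusp1, Dusp6 and Dusp7 sit lower in every LPS library than in any unstimulated one, and Dusp2, Dusp4, Dusp5, Dusp16 and Dusp18 sit higher after LPS within each genotype.

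Among the inducible nuclear phosphatases, Dusp2 (chromosome 2, 127336159 to 127338376, plus strand), which acts on ERK and p38, had the largest response of the 10 genes. It was 5.86, 4.0 and 4.61 CPM in unstimulated WT replicates 1 to 3, 6.89, 4.29 and 4.49 CPM in ACAT1 KO replicates 1 to 3, and after LPS 43.5, 55.9 and 73.5 CPM in WT and 112, 105 and 61.4 CPM in ACAT1 KO replicates. Every LPS library was above every unstimulated library, and after LPS the highest WT library lay above the lowest ACAT1 KO library. The log2 fold change was 3.58 (standard error 0.290, edgeR adjusted p = 6.40e-07) in WT and 4.14 (standard error 0.293, adjusted p = 1.83e-07) in ACAT1 KO cells, which is 12-fold and 17.7-fold.

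Dusp1 (chromosome 17, 26505590 to 26562128, minus strand), the phosphatase best known for ending p38 and JNK signalling in macrophages, went the other way at 2 hours. Unstimulated levels were 727, 344 and 393 CPM in WT and 385, 412 and 334 CPM in ACAT1 KO replicates, and LPS levels were 102, 44.0 and 53.4 CPM in WT and 58.6, 51.0 and 34.8 CPM in ACAT1 KO replicates. WT replicate 1 was the highest library in both states, and no LPS library reached the lowest unstimulated one. Its log2 fold change was -2.88 (standard error 0.354, edgeR adjusted p = 2.27e-05) in WT and -2.97 (standard error 0.356, adjusted p = 1.66e-05) in ACAT1 KO cells, 7.36-fold and 7.84-fold lower. A single time point after LPS was sampled, so earlier levels are not known from these libraries.

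Dusp4 (chromosome 8, 34807297 to 34819894, plus strand), a nuclear phosphatase of ERK, JNK and p38, rose less than 2-fold. It was 158, 168 and 145 CPM in unstimulated WT replicates and 131, 121 and 104 CPM in ACAT1 KO replicates, then 351, 234 and 263 CPM and 192, 171 and 182 CPM after LPS. The genotypes did not overlap in either state, and LPS libraries lay above unstimulated libraries of the same genotype. The log2 fold change with LPS was 0.85 (standard error 0.134, edgeR adjusted p = 1.72e-04) in WT and 0.61 (standard error 0.134, adjusted p = 0.00185) in ACAT1 KO cells.

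Dusp5 (chromosome 19, 53529109 to 53542431, plus strand), a nuclear phosphatase specific for ERK, rose from 64.7, 36.4 and 32.8 CPM to 113, 67.7 and 83.2 CPM in WT replicates. In ACAT1 KO replicates it rose from 18.3, 14.1 and 12.6 CPM to 64.5, 57.8 and 53.8 CPM. All 3 unstimulated ACAT1 KO libraries were below every other library, and WT replicate 1 was the highest of its group in both states. These are log2 fold changes of 0.98 (standard error 0.252, edgeR adjusted p = 0.00543) in WT and 1.97 (standard error 0.260, adjusted p = 3.72e-05) in ACAT1 KO cells, or 1.97-fold and 3.91-fold.

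Both cytoplasmic ERK phosphatases fell. Dusp6 (chromosome 10, 99263231 to 99267489, plus strand), whose transcript is a standard readout of ERK activity, went from 86.1, 109 and 128 CPM to 16.3, 19.6 and 18.5 CPM in WT replicates and from 95.4, 121 and 108 CPM to 15.6, 18.2 and 14.0 CPM in ACAT1 KO replicates. The genotypes overlapped in both states, and the states did not. Its log2 fold change was -2.57 (standard error 0.154, edgeR adjusted p = 5.42e-08) in WT and -2.77 (standard error 0.155, adjusted p = 2.80e-08) in ACAT1 KO cells, the smallest adjusted p of the 10 genes in each genotype.

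Dusp7 (chromosome 9, 106368632 to 106375724, plus strand), its close relative, went from 22.4, 24.3 and 22.2 CPM to 12.9, 9.16 and 7.96 CPM in WT replicates. In ACAT1 KO replicates it went from 20.3, 33.7 and 25.2 CPM to 4.76, 4.52 and 4.37 CPM. Unstimulated libraries of the genotypes overlapped, whereas after LPS all 3 ACAT1 KO libraries lay below all 3 WT libraries. The fall was 1.20 on the log2 scale in WT cells (log2 fold change -1.20, standard error 0.187, edgeR adjusted p = 1.53e-04) and larger in ACAT1 KO cells (-2.54, standard error 0.197, adjusted p = 3.84e-07), or 2.30-fold and 5.80-fold.

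Of the phosphatases of JNK and p38, Dusp16 (chromosome 6, 134715468 to 134792625, minus strand), which favours JNK, rose alike in value in both genotypes. It was 82.5, 73.7 and 68.2 CPM in WT and 76.0, 82.3 and 72.1 CPM in ACAT1 KO replicates without stimulation, and 133, 126 and 118 CPM and 137, 127 and 133 CPM after LPS. Log2 fold changes were 0.75 (standard error 0.0786, edgeR adjusted p = 5.96e-06) and 0.78 (standard error 0.0785, adjusted p = 3.53e-06). The genotypes overlapped in each state, and no unstimulated library reached the lowest LPS library.

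Dusp10 (chromosome 1, 184013302 to 184075636, plus strand), a phosphatase of p38 and JNK, was a low gene with 283 to 809 counts per library. WT replicates were 7.22, 4.61 and 5.42 CPM without stimulation and 5.56, 5.85 and 5.35 CPM after LPS, overlapping ranges that differed by -0.04 on the log2 scale (standard error 0.149, edgeR adjusted p = 0.834). ACAT1 KO replicates were 5.81, 5.30 and 4.92 CPM without stimulation and 3.29, 3.18 and 3.66 CPM after LPS, a change of -0.66 on the log2 scale (standard error 0.15, edgeR adjusted p = 0.00232).

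Dusp8 (chromosome 7, 142079490 to 142095843, minus strand), which acts on JNK and p38, had WT levels of 7.77, 7.74 and 7.17 CPM without stimulation and 9.37, 10.2 and 9.13 CPM after LPS. Although these ranges did not meet, the log2 fold change of 0.34 (standard error 0.195) was not called (edgeR adjusted p = 0.158). Pairing libraries by replicate number, as a block, lowered the standard error to 0.111 and brought it past the threshold (log2 fold change 0.34, adjusted p = 0.0269), in a fit that called 62% of all genes. ACAT1 KO replicates ranged more widely, from 5.74 to 11.2 CPM without stimulation and from 8.28 to 11.1 CPM after LPS, and the value of 0.11 on the log2 scale (standard error 0.194, edgeR adjusted p = 0.630) changed sign under upper-quartile normalization.

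Dusp18 (chromosome 11, 3895240 to 3901296, plus strand), the atypical member, rested on 67 to 156 counts per unstimulated library and 161 to 1070 per LPS library. It was 2.04, 1.02 and 1.25 CPM in WT and 1.13, 0.870 and 0.859 CPM in ACAT1 KO replicates without stimulation. After LPS the 3 WT libraries stood together at 6.92, 6.37 and 7.07 CPM and the 3 ACAT1 KO libraries at 1.87, 1.72 and 1.89 CPM, so the lowest WT library was above the highest ACAT1 KO library, and one unstimulated WT library was above every ACAT1 KO LPS library. The log2 fold change with LPS was 2.24 (standard error 0.224, edgeR adjusted p = 3.93e-06) in WT and 0.93 (standard error 0.220, adjusted p = 0.00292) in ACAT1 KO cells, or 4.73-fold and 1.91-fold.

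**Figure D3:**
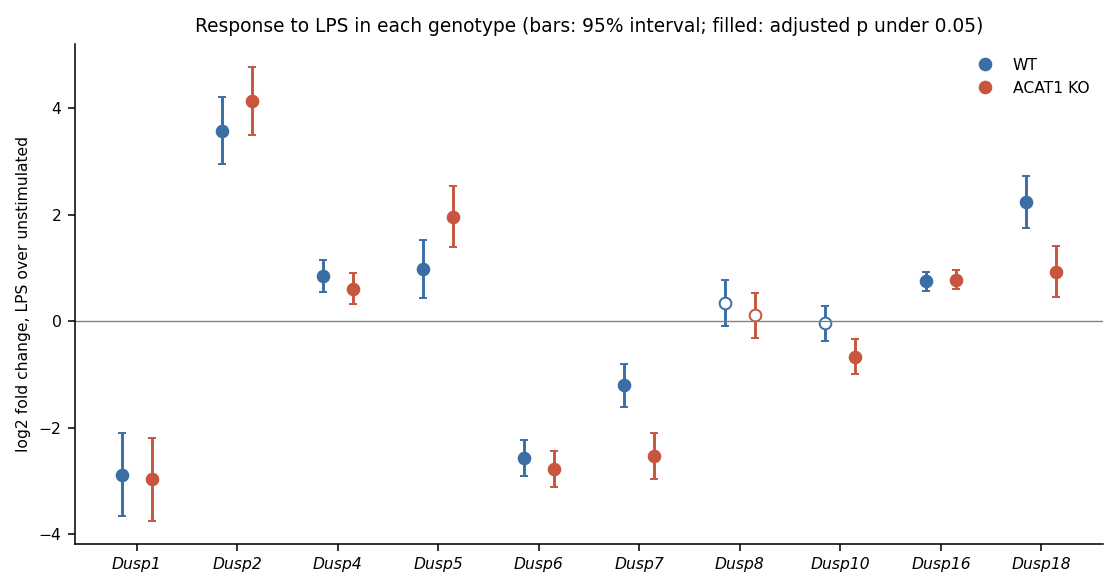
Log2 fold change of LPS over unstimulated cells (y axis) for each gene (x axis) in WT and ACAT1 KO cells, with 95% intervals and filled points for an adjusted p under 0.05. Dusp7 sits at -1.20 in WT and -2.54 in ACAT1 KO cells, Dusp18 at 2.24 and 0.93, and Dusp5 at 0.98 and 1.97, while Dusp1, Dusp6 and Dusp16 lie close together in the 2 genotypes.

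The next question is where ACAT1 KO and WT cells differed within a state, and here fewer of the 10 genes were called. In unstimulated cells 1 gene was lower in ACAT1 KO cells and none was higher, beside 1.17% and 0.742% of 16440 genes. After LPS 4 genes were lower and none was higher, beside 9.12% and 5.93% of 16483 genes. Libraries of a group varied more without stimulation (edgeR's common coefficient of variation 0.285, against 0.108 after LPS). Differences of the same size are thus harder to call there, and the 2 counts do not compare the states. The median log2 fold change of the 10 genes was -0.04 without stimulation and -0.50 after LPS, against 0.0035 and -0.0041 over all genes. Libraries of the genotypes did not overlap for 2 of the 10 genes without stimulation and for 5 after LPS, beside 25.8% and 37.6% of all genes. With 3 libraries against 3, an exact permutation test of a single gene cannot go below p = 0.1, so the calls rest on the spread that edgeR shares across genes.

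Dusp5 was the gene called in unstimulated cells. WT cells had 44.6 ± 17.5 CPM (SD, n = 3) and ACAT1 KO cells had 15.0 ± 2.99 CPM. Its log2 fold change of -1.56 (95% interval -2.23 to -0.90, standard error 0.280, edgeR adjusted p = 0.0477) is 2.95-fold lower. The call sits at the threshold and was lost in 5 of the 6 fits that left out 1 library, all but that without WT replicate 3 (log2 fold changes from -1.75 to -1.21), and with limma-voom (adjusted p = 0.0548). Within the 3 unstimulated libraries that stood apart above, the log2 difference was -1.78 (2 WT, 1 ACAT1 KO), and within the other 3 it was -1.11 (1 WT, 2 ACAT1 KO). The antisense gene AC137853.2 overlaps 547 exon bases of Dusp5 and had 1.03, 0.519 and 0.138 CPM in unstimulated WT and at most 0.337 CPM in ACAT1 KO replicates. Its part in the result was not tested.

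After LPS Dusp5 was 87.9 ± 22.9 CPM in WT cells and 58.7 ± 5.41 CPM in ACAT1 KO cells (SD, n = 3). The log2 fold change of -0.56 (standard error 0.167) did not pass (edgeR adjusted p = 0.0581), although every ACAT1 KO library was below every WT library. It passed with DESeq2 (adjusted p = 0.00585) and, by edgeR, without WT replicate 2 (log2 fold change -0.71, adjusted p = 0.0287).

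Dusp18 had the largest difference after LPS, 6.79 ± 0.371 CPM (SD, n = 3) in WT and 1.83 ± 0.0940 CPM in ACAT1 KO cells. The log2 fold change was -1.87 (95% interval -2.11 to -1.64, standard error 0.102, edgeR adjusted p = 3.79e-04), 3.67-fold lower and ranked 3 by p among 16483 genes. It was called in all 6 fits that left out 1 library, between -1.92 and -1.83. Without stimulation the log2 fold change was -0.58 (standard error 0.292, adjusted p = 0.332) and libraries overlapped. Of 16 genes tested within 250 kb of Dusp18, 4 were lower and none was higher in ACAT1 KO cells after LPS, with log2 fold changes from -1.74 to 0.41 and a median of -0.04. Whether the difference follows the chromosome segment of these clones was not tested.

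Dusp7 was 10.0 ± 2.55 CPM in WT cells and 4.55 ± 0.197 CPM in ACAT1 KO cells (SD, n = 3) after LPS, a log2 fold change of -1.11 (95% interval -1.50 to -0.72, standard error 0.169, edgeR adjusted p = 0.00710). Without stimulation it was 23.0 ± 1.18 and 26.4 ± 6.79 CPM, which is 0.21 on the log2 scale (standard error 0.177, edgeR adjusted p = 0.580). Of 17 genes tested within 250 kb, 3 were higher and none was lower in ACAT1 KO cells after LPS.

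Dusp10 was 5.58 ± 0.252 CPM in WT cells and 3.38 ± 0.247 CPM in ACAT1 KO cells (SD, n = 3) after LPS, a log2 fold change of -0.70 (95% interval -0.93 to -0.47, standard error 0.100, edgeR adjusted p = 0.00597). Like Dusp7 and Dusp18 it was called in every fit that left out 1 library. Without stimulation its log2 fold change was -0.10 (standard error 0.188, adjusted p = 0.836).

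Dusp4 was lower in ACAT1 KO cells in every library of both states. After LPS the log2 fold change was -0.62 (95% interval -0.93 to -0.30, standard error 0.137, edgeR adjusted p = 0.0237), and the call was lost when any 1 ACAT1 KO library was left out (adjusted p from 0.0620 to 0.0864). Without stimulation it was -0.39 (standard error 0.0983) and was not called by edgeR (adjusted p = 0.0988). It was called by DESeq2 (adjusted p = 0.00441), which called 1721 of all genes there, against 314 by edgeR.

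Dusp2 was 57.6 ± 15.1 CPM in WT cells and 92.8 ± 27.3 CPM in ACAT1 KO cells (SD, n = 3) after LPS. The log2 fold change of 0.70 (95% interval 0.14 to 1.27, standard error 0.245) was not called (edgeR adjusted p = 0.0911), and without ACAT1 KO replicate 3 it was 0.93 and passed (adjusted p = 0.0368). Dusp2 lies on chromosome 2, where 712 genes from 90 Mb on had a median log2 fold change of 0.28 after LPS, with 260 called higher and 8 lower in ACAT1 KO cells. Of 11 genes tested within 250 kb of it, 8 were higher and none was lower, with a median of 0.38. In unstimulated cells the genes of that segment had a median of 0.29, and Dusp2 itself was 4.82 ± 0.948 and 5.22 ± 1.45 CPM. The part of this segment in the Dusp2 values was not tested.

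The remaining 4 genes were not called in either state. Dusp1 had log2 fold changes of -0.36 (95% interval -1.02 to 0.29) without stimulation and -0.44 (-1.15 to 0.26) after LPS. The first of these turned to 0.0286 without WT replicate 1, which had 727 CPM against at most 412 CPM in any other unstimulated library. Dusp6 had intervals of -0.36 to 0.39 and -0.42 to 0.08, Dusp8 of -0.33 to 0.77 and -0.26 to 0.27, and Dusp16 of -0.16 to 0.26 and -0.04 to 0.23 without stimulation and after LPS respectively, all at the 95% level.

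**Figure D4:**
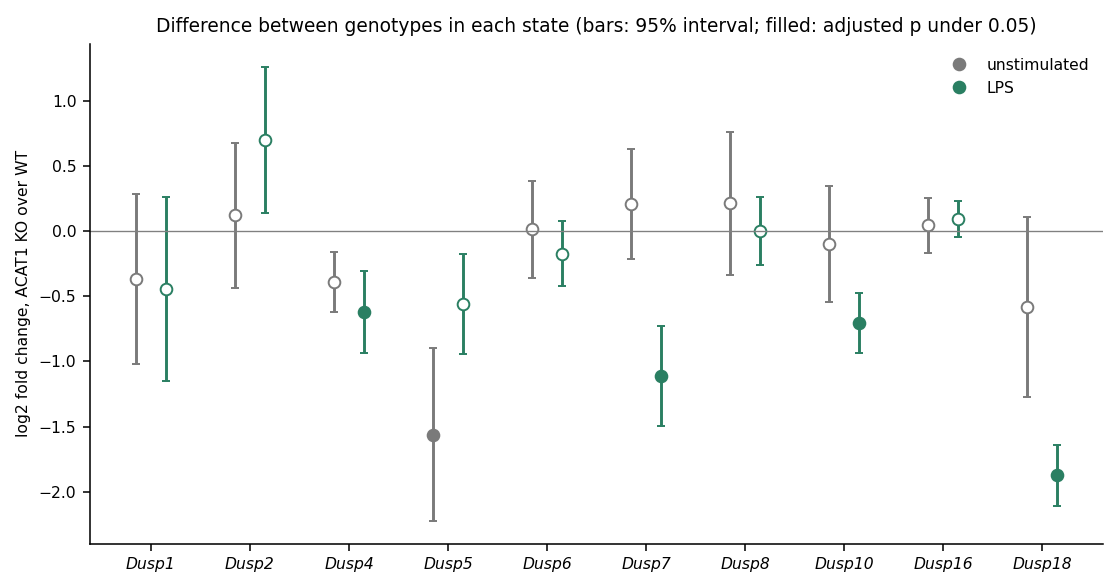
Log2 fold change of ACAT1 KO over WT cells (y axis) for each gene (x axis) in unstimulated and LPS cells, with 95% intervals and filled points for an adjusted p under 0.05. Dusp5 is the filled point without stimulation at -1.56, and Dusp4, Dusp7, Dusp10 and Dusp18 are filled after LPS, between -1.87 and -0.62.

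The last question is whether the response to LPS differed between genotypes, which is the interaction of both factors. No gene of the 10 was called by edgeR at an adjusted p under 0.05, beside 0.0484% of 16535 genes called higher and 0.139% called lower. At an unadjusted p under 0.05, 4 of the 10 passed, against 1475 of all genes. DESeq2 called Dusp7 and Dusp18 at its adjusted threshold, among 333 calls over all genes, against 31 by edgeR. The interaction was -1.33 (standard error 0.265, adjusted p = 0.0817) for Dusp7, -1.31 (standard error 0.308, adjusted p = 0.128) for Dusp18, 0.99 (standard error 0.355, adjusted p = 0.375) for Dusp5 and -0.62 (standard error 0.212, adjusted p = 0.339) for Dusp10, on the log2 scale. Values for the other 6 genes were between -0.24 and 0.56.

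Unstimulated and LPS libraries with the same replicate number deviated together from their group means, least so for ACAT1 KO replicates 2 and 3. Pairing them as a block tightened these values. With the block the interaction was -1.28 (standard error 0.234, edgeR adjusted p = 0.0382) for Dusp7, -1.35 (standard error 0.258, adjusted p = 0.0451) for Dusp18 and 0.97 (standard error 0.145, adjusted p = 0.0194) for Dusp5. The fit with the block called 1.74% of all genes. By replicate number Dusp7 changed by -0.80, -1.41 and -1.48 on the log2 scale in WT and by -2.09, -2.90 and -2.52 in ACAT1 KO cells. Dusp18 changed by 1.75, 2.62 and 2.49 in WT and by 0.72, 0.97 and 1.12 in ACAT1 KO cells, and Dusp5 by 0.80, 0.90 and 1.34 and by 1.81, 2.03 and 2.10. The genotypes did not overlap for these 3 genes, nor for Dusp10, which was not called with the block (-0.64, edgeR adjusted p = 0.184), so 4 of the 10 genes were separate, beside 20.4% of all genes. For Dusp7 and Dusp18 the genotypes overlapped without stimulation and were separate after LPS, whereas for Dusp5 they were separate in both states.

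**Figure D5:**
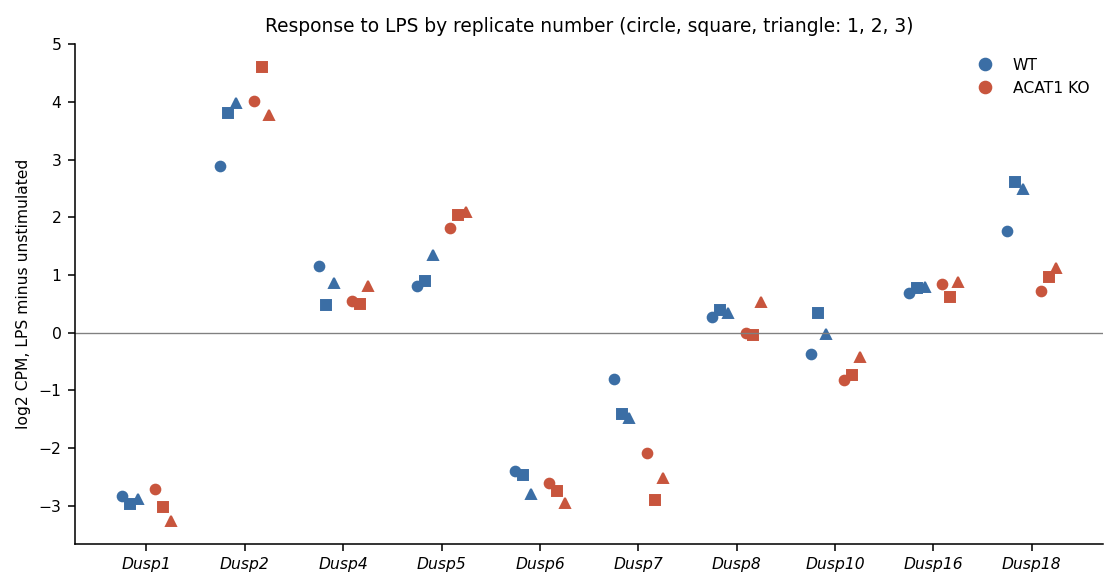
Difference in log2 CPM between the LPS and the unstimulated library of the same replicate number (y axis) for each gene (x axis), 3 values per genotype. The values of WT and ACAT1 KO cells are separate for Dusp5, Dusp7, Dusp10 and Dusp18, and they interleave for Dusp1, Dusp2 and Dusp16.

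Other genes of the MAPK pathway, in lists chosen with earlier results of these data known, moved with LPS in both directions. The counts below stand beside 29.3% of all genes called higher and 28% called lower with LPS in WT cells, and 29.5% and 31.2% in ACAT1 KO cells. Of 15 further dual-specificity phosphatases tested, 2 rose and 4 fell in WT cells and 2 rose and 6 fell in ACAT1 KO cells. Ssh2, a slingshot phosphatase of cofilin, fell by 1.93 on the log2 scale in WT cells (log2 fold change -1.93, edgeR adjusted p = 1.72e-07) and had -1.84 in ACAT1 KO cells (adjusted p = 2.10e-07). Dusp19 had -0.84 (adjusted p = 4.78e-05) and -0.98 (adjusted p = 1.24e-05). Between genotypes none of the 15 was called without stimulation. After LPS 1 was called, Ssh1 (log2 fold change -0.51, edgeR adjusted p = 0.0183), beside 9.12% of all genes called lower, and the call was lost without ACAT1 KO replicate 1 or 2.

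Among 10 MAP kinases tested with LPS, Mapk6, which encodes the atypical kinase ERK3, rose by a log2 fold change of 1.55 (edgeR adjusted p = 1.15e-07) in WT cells, and Mapk14, which encodes p38 alpha, fell by 0.59 (log2 fold change -0.59, adjusted p = 3.13e-05). In all 3 rose and 3 fell in WT cells, and 2 rose and 4 fell in ACAT1 KO cells. Of 7 MAP2 kinases 4 rose and 1 fell in each genotype, and Map2k3, a kinase of p38, had the largest rise in WT cells (log2 fold change 1.62, adjusted p = 9.81e-07). Of 24 MAP3 kinases and partners 9 rose and 9 fell in each genotype. Map3k8, the kinase through which TLR4 reaches ERK, rose by 2.31 (adjusted p = 3.26e-09) in WT and 2.35 (adjusted p = 2.31e-09) in ACAT1 KO cells.

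Of 9 MAPK-activated kinases 4 rose and 2 fell in each genotype, and Mapkapk2, the substrate kinase of p38, went from 560 to 1914 CPM in WT cells (log2 fold change 1.77, edgeR adjusted p = 9.14e-10). Among 8 other phosphatases of MAPKs 4 rose and 2 fell in each genotype. Ptpn7, a tyrosine phosphatase of ERK and p38, had log2 fold changes of -1.38 (adjusted p = 2.88e-07) in WT and -1.85 (adjusted p = 2.58e-08) in ACAT1 KO cells. Of 6 feedback inhibitors of ERK 2 rose and 3 fell in each genotype.

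Spry2, one of these feedback inhibitors, was the single gene of these lists with a called interaction (log2 -0.98, standard error 0.168, edgeR adjusted p = 0.0495), at the threshold. The call was lost in all 12 fits that left out 1 library, with limma-voom, and with RLE or upper-quartile normalization. It fell with LPS by a log2 fold change of -1.09 in WT and -2.08 in ACAT1 KO cells, and after LPS it was 7.74 CPM in WT and 4.93 CPM in ACAT1 KO cells as a mean (log2 fold change -0.63, adjusted p = 0.00960). Between genotypes after LPS, 2 of 10 MAP kinases, 1 of 7 MAP2 kinases and 4 of 24 MAP3 kinases or partners were called lower in ACAT1 KO cells. So was 1 of 8 other MAPK phosphatases, and none of these was called higher, beside 9.12% lower and 5.93% higher of all genes. None of 9 MAPK-activated kinases was called by edgeR in either direction, with a median log2 fold change of 0.075. DESeq2 called 2 of the 9, and the fit of all 12 libraries called 3. The count was 1 with limma-voom, the replicate block or upper-quartile normalization, and without WT, LPS replicate 1. Without 1 library the counts of genes called lower fell to 0 for MAP kinases in 4 of 6 fits and for MAP2 kinases in 5. They fell to 1 or 2 for MAP3 kinases in 5, and to 0 for the other phosphatase without ACAT1 KO replicate 2. The largest difference among the genes called lower was that of Map3k1 (log2 fold change -0.81, edgeR adjusted p = 0.00261). Without stimulation 1 gene of these lists was called, Tab1, a partner of the kinase TAK1 (log2 fold change -0.58, edgeR adjusted p = 0.0368). That call was lost with the replicate block and in 5 of the 6 fits that left out 1 library. DESeq2, with 1721 calls over all genes against 314 by edgeR, called 3 genes of the same list. It also called 4 MAPK-activated kinases, 1 MAP kinase and 1 feedback inhibitor of ERK. With all 12 libraries in 1 fit, which called 1353 of all genes, 3 genes of the list of Tab1 were called. So were 3 MAPK-activated kinases and 1 feedback inhibitor of ERK.

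Across the 12 libraries the 10 genes fell into groups by the LPS split that all libraries share, and correlations are given as descriptions. Dusp1, Dusp6 and Dusp7 correlated with each other in log2 CPM (Pearson r from 0.92 to 0.94, 12 libraries), as did Dusp2 with Dusp16 (r = 0.96), while Dusp2 and Dusp6 ran opposite (r = -0.98). Dusp4 followed Dusp18 (r = 0.92) and Dusp5 (r = 0.90). Dusp8 had no r above 0.54 in size with any other member. Most like Dusp18 among 11951 genes of at least 1 CPM were Map4k5 (r = 0.98) and Nck2 (r = 0.97), and 23 genes exceeded 0.95. Dusp7 was most like Stil (r = 0.99) and E2f2 (r = 0.98), and Dusp5 had Ahr (r = 0.96) among its nearest. Dusp4 was most like Epb41l5 and Lima1 (both r = 0.98). For Dusp2, whose nearest genes were Marchf5 (r = 0.995) and Birc2 (r = 0.994), 1340 genes exceeded 0.95. So did 1052 genes for Dusp6 (nearest Foxd2os, r = 0.997, and Cep57l1, r = 0.996). The number was 1062 for Dusp16 (Bpnt2 and Tlnrd1, both r = 0.99) and 390 for Dusp1 (Gm45221 and Gm17024, both r = 0.99). The pattern of Dusp10 was matched above 0.95 by 1 gene, Gskip (r = 0.96), ahead of Ppp2r3c (r = 0.94), and that of Dusp8 by none, with Mef2a (r = 0.82) and Gm2991 (r = 0.81) nearest.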

How the data were processed

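RNA-seq of 12 libraries of J774A.1 cells was analysed, 3 in each of 4 groups by the genotype, treatment and replicate number of the labels. Libraries came from a directional kit. The submitters' notes and the paper name Trimmomatic 0.33 for trimming, HISAT2 for alignment (GRCm38) and StringTie for quantification. Each state has a table of raw gene counts, which the authors deposited without normalization. The step that gave whole counts, and whether it used strand, are not given in the sources used here. The tables also hold 12 columns of log2 values per library and the authors' fold changes and p-values, which were not used. Of 17603 and 17931 entries, 59 and 57 repeats of a gene were removed, and 16699 genes are in both tables. Listed genes all reach 4 counts in 5 or more libraries of their state, so a gene silent in a group can be missing. Pairs of libraries of a group differed by more than sampling noise (chi-square per degree of freedom 31.7 to 269.2), so none is a copy. The paper gives the unstimulated libraries of a genotype as different lines. For LPS libraries the sources used here do not say this, so there p-values measure only the spread between samples, which may be technical.

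Counts were tested with edgeR 4.0.16 in R 4.3.3 (TMM, filterByExpr, quasi-likelihood test, two-sided, Benjamini-Hochberg adjustment over all genes tested), within each state for genotypes and over all 12 libraries for LPS and the interaction. Apart from the sums of markers, which use total counts, CPM and RPKM use TMM library sizes of 12 libraries. RPKM also use the union of GENCODE M21 exons. Correlations use log2 CPM with a prior count of 2. The fits were tested on simulated data with a fixed spread that was not taken from these libraries. That test does not measure how often calls are right here. Unstimulated and LPS libraries of the same genotype and number correlated in their deviations from group means (r from 0.14 to 0.45 over 11961 genes). Different numbers had r from -0.34 to 0.10, but deviations cancel within a group, so this contrast is partly built in. In ACAT1 KO cells r was 0.45, 0.14 and 0.18 for numbers 1 to 3, and 0.10 for unstimulated 2 with LPS 3. Numbers were taken to pair lines across states, which the labels do not state. Between WT and ACAT1 KO libraries of 1 number, r was -0.41, 0.75 and 0.75 for replicates 1 to 3 without stimulation. After LPS it was 0.13, 0.17 and -0.11. The values of 0.75 exceed those within a genotype, so deviations also hold structure other than lines. Both replicates 2 were among the 3 unstimulated libraries rich in other-strand noncoding counts, and both replicates 3 were not. Of replicate 1 only the WT library was. The part of this in r was not tested.

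The alternatives were DESeq2 1.42.0, limma-voom (limma 3.58.1), upper-quartile and RLE normalization, a minimum of 10 counts in every library or no filter, the replicate block, other sets of libraries in the fit and each library left out. A batch term that marks the 3 unstimulated libraries rich in other-strand noncoding counts was chosen after seeing the data. The genes and lists were chosen with earlier results of these data known. Named are the 10 genes, Acat1, of each list at most 3 called genes with the largest change at a mean of at least 1 CPM, and the 2 genes most like each member, and the text gives some of them, since a few items are not reported here. Promoters are from RefSeq. Protein sequences were not used here.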

Additional observations from a re-analysis of the deposited data

Results flagged for a closer look

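The difference in LPS response between genotypes was tested as an interaction, and 3 of the 10 genes passed when libraries were paired by replicate number. Dusp5 had an interaction of 0.97 on the log2 scale (standard error 0.145, edgeR adjusted p = 0.0194 with the block and 0.375 without it), with a larger rise in all 3 ACAT1 KO pairs than in any WT pair. Dusp7 had -1.28 (standard error 0.234, adjusted p = 0.0382 with the block and 0.0817 without it), with a larger fall in all 3 ACAT1 KO pairs. Dusp18 had -1.35 (standard error 0.258, adjusted p = 0.0451 with the block and 0.128 without it), with a smaller rise in all 3 ACAT1 KO pairs. These calls rest on an inferred pairing, and 1.74% of all genes were called in the same fit.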

How the results depend on the processing

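With LPS, 8 to 9 of the 10 genes were called in WT and 9 in ACAT1 KO cells under every alternative run. Upper-quartile normalization moved the median log2 fold change of all genes with LPS from -0.02 to -0.23 in WT and from -0.03 to -0.17 in ACAT1 KO cells, and left 3628 of 10309 calls higher in WT cells, against 4850 of 9488, and 3921 of 10481, against 4871 of 10037, in ACAT1 KO cells. Genotype calls after LPS numbered 3 to 5. In unstimulated cells DESeq2 called 2 genes and limma-voom 0, and fits without 1 library called 0 to 1. For the interaction DESeq2 called 2, the library batch term 1, the replicate block 3, the batch term with the block 3, and fits without 1 library 0 to 1 (1 without WT, unstimulated replicate 1). Over all genes, the unstimulated comparison called 314, but 1721 with DESeq2, 1353 with all 12 libraries, 664 with the batch term, 475 with at least 10 counts and 7 to 522 without 1 library, and the replicate block gave 151. After LPS it called 2481, and 867 (without ACAT1 KO replicate 2) to 2245 without 1 library. The interaction called 31, but 11 with limma-voom, 333 with DESeq2, 288 with the replicate block, 457 with the batch term and block, and 2 to 41 without 1 library. Pairing genotypes by number called Dusp5 after LPS (-0.53, adjusted p = 0.0332) and otherwise changed no genotype call of the 10 genes within a state. Signs turned only for values that were not called. Dusp8 between genotypes after LPS was -0.0105 with limma-voom, -0.00687 with the replicate block, -0.0172 with all 12 libraries and -0.12 to 0.0931 without 1 library, and its LPS response in ACAT1 KO cells was -0.0359 with upper-quartile normalization and -0.11 to 0.33 without 1 library. Without stimulation, the genotype difference of Dusp6 was -0.00261 with upper-quartile normalization, and without 1 library it ran from -0.13 to 0.17 for Dusp6, -0.56 to 0.0286 for Dusp1, -0.14 to 0.28 for Dusp2, -0.0056 to 0.35 for Dusp7, -0.0118 to 0.45 for Dusp8, -0.23 to 0.0884 for Dusp10 and -0.0140 to 0.11 for Dusp16. The LPS response of Dusp10 in WT cells was 0.0134 with the batch term and block and -0.18 to 0.13 without 1 library. The interaction of Dusp16 was -0.0236 with the batch term, -0.0167 with the batch term and block and -0.00829 to 0.0986 without 1 library, and that of Dusp1 was -0.46 to 0.35. The causes were not tested. Dusp18 and Dusp10, with the fewest counts, have the least counting precision.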
